A study of Homo sapiens with 8 samples.

Results

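The comparison described here sets MDA-MB-231 cells given a low dose of a plant preparation against untreated cells of the same line, over all genes that the arrays named. It uses 6 of the 8 deposited arrays, the 3 titled Control and the 3 titled Low. The other two, titled High, entered the fit only to estimate the spread. Of 53617 rows in the deposited table, 23558 carried exactly 1 gene symbol, and the brightest row of each symbol gave 22109 genes, all of which are members. MDA-MB-231 is a triple-negative human breast cancer line grown from a pleural effusion. Control cells received no treatment. Per the titles and the treatment protocol, the low group received an ethanol extract of wild yam root at 15 µg/mL and the high group the same extract at 30 µg/mL, both for 24 h and both described as sublethal. The source names and treatment fields of the same arrays say otherwise: there the low group is labelled Boswellia Serrata Extract, 128 µg/mL, and the high group is labelled 3-O-Acetyl-β-boswellic acid, 46 µg/mL. What the low group received is therefore not settled by the labels, and "low dose" is used as the name of the group. Nothing in the labels ties the arrays of a group to separate cultures, and p-values therefore measure only the spread between these samples, which may be technical. No ethanol control is named in the labels.

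Dividing cells run their genes in waves. E2F factors drive the genes of DNA replication as cells leave G1, and the DREAM and MuvB complexes, with B-MYB and FOXM1, act on the genes of mitosis through a promoter element known as the CHR and through CCAAT boxes bound by NF-Y. Inflammatory and immediate early genes answer to NF-κB, AP-1 and MAP kinases within hours, and genes of sterol synthesis to SREBP2, which is released when membrane sterol is short. MDA-MB-231 cells are known for high basal inflammatory signalling and a mesenchymal state.

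The values are log2 expression levels as deposited, and each change is the mean of the low arrays minus the mean of the control arrays, with its standard error (SE). The 75th percentile of the genes was 4.54 to 4.94 on the 6 arrays, lowest on low 3 (4.54) and next on control 3 (4.73). In a principal component analysis of these arrays the first component (44.1% of the variance) placed control 3 at -54.6, controls 1 and 2 at -7.8 and -6.6 and the low arrays at 22 to 24.6. The second component (29.1%) placed low 3 at -39.2. Control 3 and low 3 thus stand apart from their groups, and main results are also given without them. Mesenchymal markers were high, as with VIM (8.68 to 9.10 on the 6 arrays) and AXL (8.89 to 9.67). The luminal receptor gene ESR1 lay at 1.60 to 1.92, PGR at 1.17 to 1.65 and the leukocyte gene PTPRC at 0.94 to 1.37. The luminal list as a whole was brighter than these 2 receptor genes, with a mean level of 3.70 to 3.97, against 1.84 to 2.04 for the immune list. No gene of the mesenchymal, luminal, immune, endothelial or adipocyte marker lists (14, 12, 13, 9 and 8 measured) passed the test.

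Rises at the low dose were fewer than falls, and their median size was larger. With limma and Benjamini-Hochberg adjustment at 0.05, 264 genes were higher (1.19% of those tested) and 400 were lower (1.81%), 3.00% in all. The median size was 1.12 on the log2 scale (2.17-fold) for rises and 1.02 (2.02-fold) for falls. Rises had the longer tail: 21 genes rose by at least 2 on the log2 scale, and the fall of NDC80 (-2.01), a subunit of the outer kinetochore, was the single fall of that size. At the other end, 100 rises and 186 falls were under 2-fold, down to the called genes HAPSTR1 (0.59 ± 0.14, adjusted p = 0.0499) and FAM120C (-0.61 ± 0.14, adjusted p = 0.0434). The arrays of the groups did not overlap in any called gene. Among all tested genes, the called ones included, arrays did not overlap in 1555 higher (7.03%) and 2875 lower genes (13.0%), 20.0% in all. Most genes with separate arrays were therefore not called. Over all genes the median change was -0.04, with 90% of genes between -0.56 and 0.47.

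The balance of rises and falls depended on how arrays were centred. Quantile normalization gave 612 higher and 570 lower genes, subtraction of each array's 75th percentile gave 459 and 370, and subtraction of array medians gave 376 and 495. Leaving out control 3 gave 250 higher and 408 lower genes, leaving out low 3 gave 252 and 188, and leaving out low 2 gave the fewest, 96 and 170. With the replicate number as a block, 483 genes were higher and 576 lower over 8 arrays, and 291 and 310 over the 6 control and low arrays alone. Of the 664 called genes, 228 (91 higher and 137 lower) passed in the same direction under each alternative setting that gave the gene a value, except a 1.5-fold minimum and a joint test of all deposited rows, which are not counted here.

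**Figure D1:**
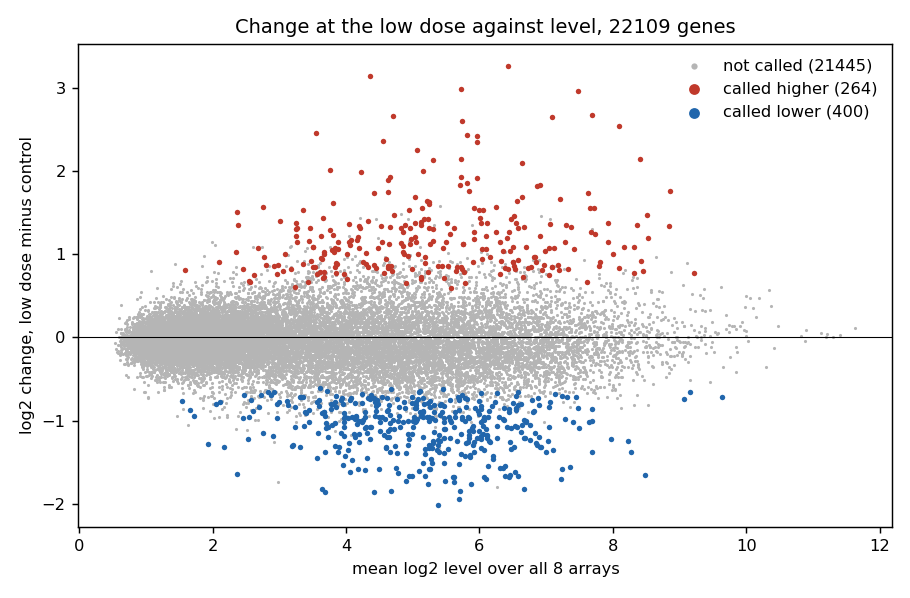
Log2 change (low dose minus control, vertical axis) against the mean log2 level over all 8 arrays (horizontal axis) for 22109 genes, 1 point each. The 264 genes called higher reach 3.26 and the 400 called lower reach -2.01, and few called genes lie at the dim end.

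Calls lay among bright genes. When genes were split into 5 equal bins of mean level, the dimmest bin (0.54 to 1.54) held 0.151% of the calls and the brightest (5.22 to 11.64) held 50.3%. In the brightest bin 3.01% of genes were called higher and 4.55% lower, against 0.724% each way in the middle bin. The brightest risen genes were ITGA2, the collagen-binding integrin chain (0.77 ± 0.17), KLF6 (1.76 ± 0.24), the stress gene IER3 (1.34 ± 0.23), UGDH, which makes UDP-glucuronate (1.19 ± 0.16), and JUN (1.47 ± 0.20). The brightest fallen genes were the histone gene H2AC20 (-0.71 ± 0.14), the ubiquitin ligase gene SMURF2 (-0.66 ± 0.15), the importin gene KPNA2 (-0.74 ± 0.15), the DNA topoisomerase gene TOP2A (-1.65 ± 0.25) and ANLN of the cytokinetic ring (-1.37 ± 0.22).

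A large share of the falls were genes of cell division. Over 15 lists of G1 control, replication, repair, mitosis, histones, chromatin assembly and the nuclear envelope, 162 of 327 measured genes fell, 2 rose (CDKN1A and H2BC5), and 305 lay below 0, with a median change of -0.81. These 162 genes make up 40.5% of all falls. Because these are bulk samples, fewer cells in a phase of the cycle and less RNA per cell cannot be told apart.

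Genes of mitosis were among the largest falls. The promoters of 3 members that fell, among those of largest change on their list whose window holds the element, are shown for the CHR, TTTGAA, in capitals (TTCAAA where it lies on the other strand). Each is the 150 bases before the gene's first listed start, from RefSeq on GRCh38.p14, written 5′ to 3′ on the gene's strand. They lie at chr14:55191586-55191735 (minus strand), chr1:37692366-37692515 (plus) and chr3:44761644-44761793 (plus).
DLGAP5: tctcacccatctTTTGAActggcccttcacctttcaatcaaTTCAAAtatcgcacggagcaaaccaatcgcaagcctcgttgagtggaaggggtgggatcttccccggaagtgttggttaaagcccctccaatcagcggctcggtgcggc
CDCA8: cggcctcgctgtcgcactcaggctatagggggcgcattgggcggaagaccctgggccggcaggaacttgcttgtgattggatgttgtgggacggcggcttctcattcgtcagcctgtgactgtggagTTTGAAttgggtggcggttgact
KIF15: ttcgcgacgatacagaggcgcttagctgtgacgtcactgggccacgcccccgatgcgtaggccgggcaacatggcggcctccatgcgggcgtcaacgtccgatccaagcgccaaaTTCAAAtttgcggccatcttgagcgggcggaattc

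CDCA8 encodes borealin, which holds the chromosomal passenger complex at centromeres. Its log2 level was 6.33, 6.55 and 6.61 on the control arrays and 4.98, 4.92 and 4.41 on the low arrays. It fell by 1.73 ± 0.18 on the log2 scale (adjusted p = 0.00125), and every low array lay below every control array. KIF15, a kinesin that helps to hold the spindle open, read 5.65, 5.48 and 6.29 against 4.22, 4.19 and 3.86 (-1.72 ± 0.21, adjusted p = 0.00255). The groups did not overlap, and control 3 was the highest of the controls. In the list of chromosomal passengers, kinesins and cytokinesis proteins 23 of 31 genes fell and none rose, with a median of -1.31. The falls included the spindle protein gene DLGAP5 (-1.82 ± 0.30) and the motor genes KIF20A (-1.70 ± 0.23), KIF18A (-1.68 ± 0.27) and KIF2C (-1.67 ± 0.21). The largest value above 0 was that of KIF13A, a motor of vesicle transport (0.47, not called).

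Of 42 KIF genes 12 fell and none rose (28.6% called), yet the family's median was -0.11, close to that of all genes. The fallen members work in spindles, on chromosomes, in cytokinesis or at centrioles (KIF24), while the transport motor gene KIF5B read 8.86, 8.88 and 9.46 in controls and 8.80, 8.78 and 8.63 at the low dose (-0.33, not called), its low arrays also below all controls. A difference between the roles was not tested.

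Of 22 mitotic cyclins and kinases 20 fell, with a median of -1.25. Those not called were MYBL2 (-0.82), which encodes B-MYB, and LIN54 (-0.35), the DNA-binding subunit of MuvB. Cyclin B2 (CCNB2) read 5.35, 5.47 and 6.63 in controls and 4.28, 4.29 and 4.08 at the low dose, a fall of 1.60 ± 0.28 (adjusted p = 0.0120). Every low array lay below every control, and control 3 was the highest. Of 34 kinetochore and centromere genes 28 fell, with a median of -1.20. In all 34 every low array lay below every control, as in 13.0% of all genes. SKA3, which tracks microtubules at the kinetochore, read 7.03, 6.99 and 7.56 against 5.78, 5.56 and 5.26 (-1.66 ± 0.21, adjusted p = 0.00255). HJURP, the chaperone of the centromeric histone, fell by 1.57 ± 0.18. The spindle checkpoint gene MAD2L1 (-1.66 ± 0.29) and the kinetochore scaffold gene KNL1 (-1.66 ± 0.30) fell as far.

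Further mitotic genes of large change, outside these lists or shared with them, were ASPM of the spindle poles (-1.68 ± 0.29), DEPDC1 (-1.72 ± 0.32), CDCA2, a phosphatase anchor on chromosomes (-1.66 ± 0.21), and the phosphatase gene CDKN3 (-1.65 ± 0.27). Control 3 was the highest control in each of them: ASPM read 6.77, 6.78 and 7.87 in controls, and CDKN3 6.84, 6.97 and 8.02. The low arrays lay below all controls, at 5.16 to 5.67 for ASPM and 5.51 to 5.72 for CDKN3.

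Control 3 moved with the mitotic lists. The mean level of mitotic cyclins and kinases was 6.30, 6.26 and 6.80 on the controls and 5.29, 5.17 and 4.89 on the low arrays, and that of kinetochore genes was 5.70, 5.68 and 6.15 against 4.80, 4.72 and 4.40. Without control 3 the medians were -1.14 and -1.01, with 20 and 25 falls. Without low 3, which was the lowest array in both lists, the medians were -1.22 and -1.07 with 15 falls in each, and 15 genes of the passenger and kinesin list fell. Without both arrays the counts were 19 and 22, so these falls were also seen between the arrays that lie close to each other.

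Smaller falls marked the machinery that ends mitosis and shapes chromosomes. Of 19 genes of the anaphase promoting complex and its regulators 5 fell: FBXO5, its inhibitor EMI1 (-1.45 ± 0.26), separase ESPL1 (-1.18 ± 0.18), the ubiquitin-conjugating enzyme UBE2C (-1.17 ± 0.20), the activator CDC20 (-1.05 ± 0.25) and the core subunit ANAPC5 (-0.67 ± 0.16). Of 22 condensin and cohesin genes 10 fell, among them TOP2A, NCAPG (-1.38 ± 0.21), the cohesin acetyltransferase ESCO2 (-1.35 ± 0.15), SMC4 (-1.27 ± 0.18) and NCAPH (-1.27 ± 0.17). The cohesin ring genes SMC1A (-0.52) and SMC3 (-0.48) were not called. Of 18 centrosome and centriole genes 5 fell, led by SASS6, which builds the centriole cartwheel (-1.22 ± 0.21), and STIL (-1.18 ± 0.21). A group of augmin and gamma-tubulin genes, chosen after the values were seen, had 4 falls in 13, such as HAUS8 (-1.19 ± 0.20) and TUBGCP3 (-0.98 ± 0.19). Without low 3 the calls were 2 in the anaphase promoting complex list (median -0.48 in place of -0.61), 6 in condensin and cohesin (-0.44 in place of -0.56), 2 in the centrosome list (-0.36 in place of -0.50) and 1 in the augmin group. Without low 3 and control 3 together they were 4, 8, 3 and 2.

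Genes of the replication fork and of licensing fell with less spread among controls than the mitotic cyclin and kinetochore lists. The promoters of 2 fallen replication fork genes are shown for an E2F-type element, TTCCCGC, in capitals (GCGGGAA on the other strand), with the same window and source, at chr12:56752324-56752473 (minus strand) and chr13:33817999-33818148 (plus).
PRIM1: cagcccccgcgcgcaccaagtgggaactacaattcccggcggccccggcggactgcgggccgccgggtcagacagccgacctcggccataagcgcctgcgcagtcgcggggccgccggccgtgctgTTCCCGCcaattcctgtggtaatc
RFC3: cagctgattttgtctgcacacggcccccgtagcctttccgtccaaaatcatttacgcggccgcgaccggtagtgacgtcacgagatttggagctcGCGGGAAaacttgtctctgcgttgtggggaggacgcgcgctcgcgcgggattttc

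PRIM1, the catalytic subunit of primase, read 6.02, 6.19 and 6.31 in controls and 4.67, 4.59 and 4.50 at the low dose. It fell by 1.58 ± 0.15 (3.00-fold; adjusted p = 0.000874), and the groups did not overlap. CDC7, the kinase that fires origins, read 6.60, 6.41 and 6.48 against 5.20, 4.98 and 4.76 (-1.52 ± 0.16, adjusted p = 0.00126). Of 27 replication fork and polymerase genes 15 fell and none rose (median -0.90), including the clamp loader subunits RFC3 (-1.25 ± 0.17) and RFC5 (-1.18 ± 0.19). Of 23 licensing and MCM helicase genes 13 fell and all 23 lay below 0 (median -0.87). GINS4, a subunit of the replicative helicase, fell by 1.27 ± 0.16 and the licensing inhibitor gene GMNN by 1.16 ± 0.18, whereas the helicase subunit MCM2 was not called (-0.61, adjusted p = 0.151). In the deoxynucleotide supply list 5 of 15 fell: thymidine kinase TK1 (-1.06 ± 0.24), both ribonucleotide reductase subunits RRM2 (-1.02 ± 0.16) and RRM1 (-0.87 ± 0.14), thymidylate synthase TYMS (-1.01 ± 0.16) and SHMT1 (-0.77 ± 0.17).

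In these lists the mean level on control 3 lay below the other controls. It was 5.82 against 6.07 and 6.05 for licensing genes, and 5.86 against 6.28 and 6.25 for deoxynucleotide genes. The mean level of the fork genes was 5.87, 5.87 and 5.70 on the controls and 5.10, 4.98 and 4.62 on the low arrays, and without control 3 their median was -0.92 with 17 falls. Low 3 was again the lowest array: without it 10 fork, 6 licensing and 3 deoxynucleotide genes fell, with medians of -0.68, -0.78 and -0.45.

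Homologous recombination and Fanconi anemia genes had the second-highest share of falls among the lists, 15 of 18, with a median of -1.26. Without control 3 their median was -1.24, lower than those of the mitotic lists. Their mean level was 5.31, 5.23 and 5.30 on the controls and 4.34, 4.20 and 3.95 on the low arrays. FANCM, which remodels stalled forks, read 4.27, 4.37 and 4.50 against 3.30, 2.85 and 2.84 (-1.38 ± 0.18, adjusted p = 0.00317). MMS22L (-1.32 ± 0.19) and the Fanconi ubiquitin-conjugating enzyme UBE2T (-1.31 ± 0.15) fell as well. By contrast 2 of 12 checkpoint and damage kinases and their targets fell, CDC25C (-1.15 ± 0.24) and the histone variant gene H2AX (-0.89 ± 0.16), and CHEK1 (-0.70) and ATR (-0.49) were not called. With the replicate block 4 of these 12 genes fell, and without low 3 only 1 did.

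At the G1 to S boundary 6 of 27 genes fell and 1 rose. The fallen genes were cyclin E2 (CCNE2, -1.29 ± 0.16), the late repressor E2F8 (-1.24 ± 0.16), the ubiquitin ligase subunit SKP2 (-1.21 ± 0.25), the pocket protein gene RBL1 (-1.07 ± 0.19), CDC25A (-1.0 ± 0.19) and CDK2 (-0.81 ± 0.18). The gene that rose was the kinase inhibitor CDKN1A (2.00 ± 0.30), which encodes p21. Of 18 p53 targets it was joined by TP53INP1 (1.53 ± 0.14), while PLK2 fell by 1.15 ± 0.16. The median of that list was 0.08. Without low 3 the G1 list had 3 falls.

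The nuclear envelope and chromatin took part in the falls. Lamin B1 (LMNB1) read 7.15, 7.00 and 7.53 in controls and 5.86, 5.76 and 5.44 at the low dose (-1.54 ± 0.21, adjusted p = 0.00381). It and TMPO (-1.42 ± 0.21), which binds lamins, led 5 falls among 26 lamina and nuclear pore genes (median -0.42). Of 21 genes of chromatin assembly and maintenance methylation 8 fell and all 21 lay below 0 (median -0.81). EZH2, the Polycomb methyltransferase, read 6.67, 6.63 and 6.68 against 5.85, 5.58 and 5.27 (-1.10 ± 0.17, adjusted p = 0.00723), and the controls lay close together. HMGB2 (-1.45 ± 0.27), SUV39H2 (-1.37 ± 0.24), HMGN2 (-1.32 ± 0.22) and ATAD2 (-1.23 ± 0.20) also fell. Without low 3 there were 5 falls among the chromatin genes and 2 among the lamina and pore genes, and without control 3 there were 12 and 3. The listed replication-dependent histone genes did not move as 1 group: of 12 measured, of 28 planned, H2AC14 (-0.96 ± 0.18) and H1-2 (-0.75 ± 0.17) fell and H2BC5 rose by 1.32 ± 0.26. Without low 3 the list had 1 fall. Histone genes outside the list, H2AC20 (-0.71) and H2AC21 (-1.29), also fell.

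**Figure D2:**
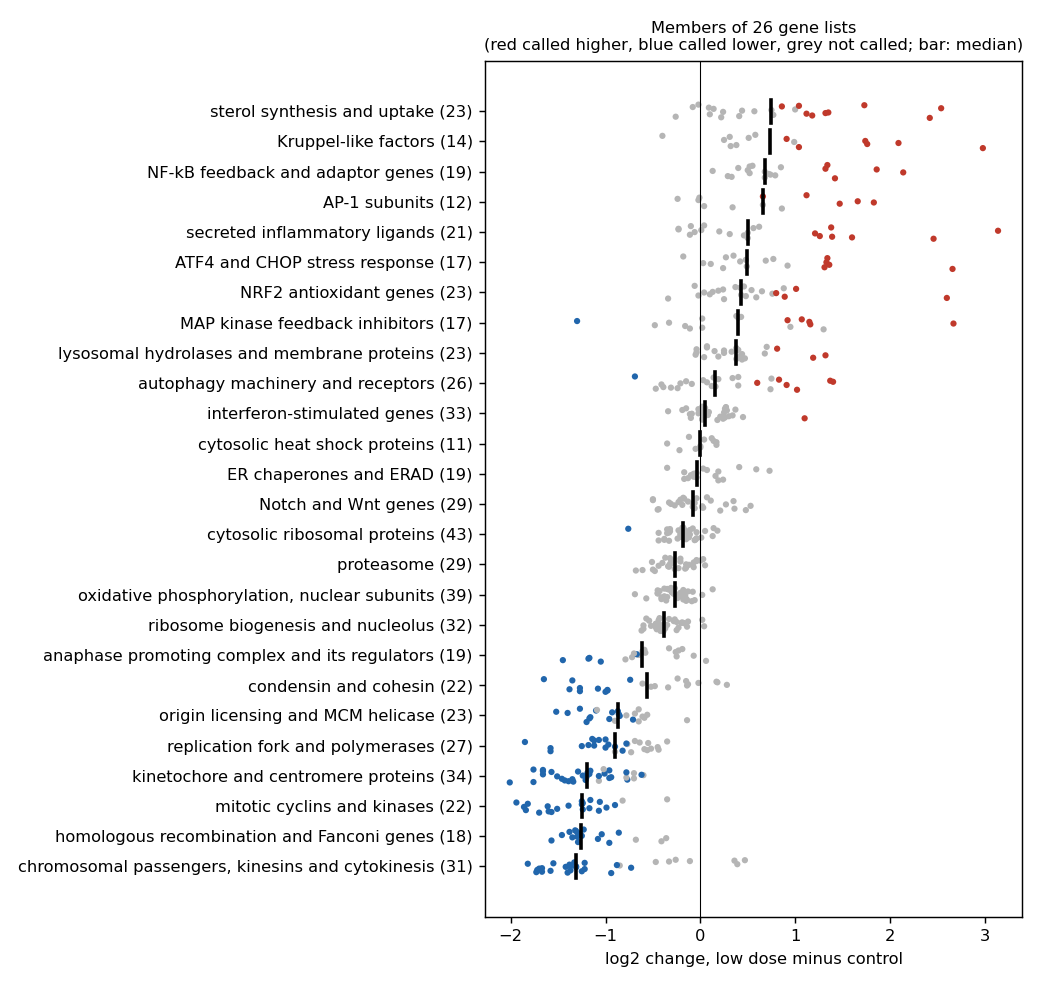
Log2 change (horizontal axis) of each measured member of 26 gene lists, 1 row per list with the number measured in brackets; the bar is the list's median. Medians of the 8 lowest lists shown lie between -1.31 and -0.56, and those of the sterol, Krüppel-like, NF-κB and AP-1 lists between 0.66 and 0.75.

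Inflammatory genes were among the rises. In the promoter of 1 risen chemokine gene, at chr4:74099196-74099345 (minus strand), a κB site is in capitals, to show the element that NF-κB is known to bind.
CXCL2: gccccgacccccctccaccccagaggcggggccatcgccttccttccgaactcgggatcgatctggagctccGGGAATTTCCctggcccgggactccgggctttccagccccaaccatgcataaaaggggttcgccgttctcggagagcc

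Of 21 secreted inflammatory ligands 7 rose and none fell (median 0.50). Besides CXCL8 and IL1A they were the fever cytokine IL6, the related IL11 (1.39 ± 0.26) and LIF (1.26 ± 0.21), the macrophage factor CSF1 (1.38 ± 0.23) and the neutrophil chemokine CXCL2. IL6 read 4.78, 4.89 and 3.68 in controls and 6.19, 6.0 and 5.97 at the low dose, a rise of 1.60 ± 0.28 (adjusted p = 0.0103), and every low array lay above every control. CXCL2 was dim and read 3.69, 3.13 and 3.32 against 4.81, 4.75 and 4.22 (1.21 ± 0.22, adjusted p = 0.0138). ICAM1, an adhesion molecule for leukocytes and a known NF-κB target, rose by 1.82 ± 0.33. The other ligands of the list were not called, for example CSF3 (0.62), CCL20 (0.56) and IL1B (0.50).

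NF-κB feedback and adaptor genes all lay above 0. Of 19 measured 5 rose, with a median of 0.68. In 14 every low array lay above every control, as in 7.03% of all genes. TNFAIP3, the ubiquitin-editing inhibitor A20, read 4.62, 4.44 and 4.12 in controls and 6.61, 6.69 and 6.30 at the low dose. TRAF1 (1.32 ± 0.23) and the kinase adaptor IRAK2 (1.86 ± 0.32) rose with it, while the subunit gene RELA had 0.74 (adjusted p = 0.164). With the replicate block 10 of the 19 genes passed. In prostaglandin synthesis, the terminal synthase PTGES (0.78 ± 0.18) rose beside PTGS2, and the other 12 measured genes were not called (median of the list 0.09).

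Early response transcription factors followed. Of 12 AP-1 subunits 5 rose: JUNB (1.83 ± 0.28), JUND, JUN and the small MAF genes MAFG (1.12 ± 0.19) and MAFF (0.66 ± 0.15). JUND read 6.40, 6.50 and 5.80 against 7.99, 8.20 and 7.49 (1.66 ± 0.23, adjusted p = 0.00420). The FOS branch did not follow. FOS itself read 6.61, 6.79 and 2.71 in controls and 6.34, 6.40 and 5.94 at the low dose. Controls 1 and 2 thus lay above all low arrays, and control 3 lay far below them (0.86 ± 0.83, not called). FOSL1 had 0.04. Control 3 lowered this list as a whole, with a mean level of 5.34, 5.35 and 4.38 on the controls and 5.82, 5.89 and 5.45 on the low arrays. Without control 3 its median was 0.22 in place of 0.66, with 4 rises.

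Of 14 Krüppel-like factors 6 rose, with a median of 0.74 (0.45 without control 3). After KLF2 came KLF7 (2.09 ± 0.34), KLF6, KLF9 (1.74 ± 0.21), KLF3 (1.04 ± 0.15) and KLF11 (0.91 ± 0.21). KLF7 read 6.08, 5.88 and 4.57 against 7.71, 7.72 and 7.36, and its groups did not overlap. Among 16 EGR, NR4A and IER genes 4 rose, including the mRNA-destabilizing factor ZFP36 (1.64 ± 0.34) and the EGR corepressor NAB2 (0.79 ± 0.17).

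Feedback on MAP kinases rose in part. Of 17 genes 5 rose and 1 fell: the phosphatase genes DUSP10, DUSP8 (1.16 ± 0.19) and DUSP16 (1.15 ± 0.19), which act mainly on the stress-activated kinases, and the receptor signalling inhibitors SPRY4 (1.07 ± 0.24) and SPRY2 (0.92 ± 0.17). SPRY1, of the same Sprouty family, fell, from 4.22, 4.12 and 5.08 to 3.09, 2.96 and 3.47 (-1.30 ± 0.25, adjusted p = 0.0179). DUSP1 read 7.46, 7.65 and 5.73 against 8.31, 8.45 and 7.99 and was not called (1.30 ± 0.40, adjusted p = 0.132), with control 3 again low. In the TGF-β, BMP and activin list 4 of 25 rose, GDF15 (2.13 ± 0.20), BMP2 (1.07 ± 0.24) and the pathway's inhibitors SKIL (0.97 ± 0.19) and SMAD7 (0.87 ± 0.19), and the BMP target ID1 fell by 1.16 ± 0.22. Without control 3 only 2 genes of that list rose. ADAM17, the protease that sheds EGF receptor ligands, rose by 0.85 ± 0.19, the 1 call among 12 genes of that family, which was lost without control 3, where the list's median went from 0.08 to -0.08. No call was made among 29 Notch and Wnt genes.

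The clock repressor PER1 read 3.96, 3.56 and 3.27 in controls and 4.85, 5.02 and 4.44 at the low dose (1.17 ± 0.21, adjusted p = 0.0133), and its groups did not overlap. It and BHLHE40 were the calls among 17 clock genes (11.8%, median 0.30, and 4 rises without control 3), and with KLF9 and NFKBIA (1.42 ± 0.21) it made up the 3 rises among 13 glucocorticoid receptor targets (23.1%, median 0.46). Of 25 genes of mRNA decay, ZFP36 and the endonuclease gene ZC3H12C (1.22 ± 0.23) rose and 3 exosome subunits fell (20.0%). Of 25 ubiquitin ligases and deubiquitinases 3 fell, each with a role in the cell cycle or DNA repair: SKP2, DTL (-1.09 ± 0.24) and USP1 (-0.86 ± 0.19), none of which fell without low 3. The calcium pump gene ATP2B1 rose by 0.77 ± 0.16.

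Of the genes with the largest rises, GEM, a RAS-related inhibitor of calcium channels, read 4.58, 4.41 and 4.03 in controls and 6.81, 6.97 and 6.53 at the low dose (2.43 ± 0.20, 5.38-fold, adjusted p = 0.000235). Its relative RRAD read 2.99, 3.10 and 3.25 against 5.19, 5.17 and 4.94 (1.99 ± 0.15, adjusted p = 0.000175). The groups did not overlap in either gene.

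Sterol genes had a median change of 0.75, the highest of the 70 lists, with Krüppel-like factors next to them at 0.74. These lists were themselves chosen with earlier results of these data known, so the rank is a description only. The groups chosen after the values were seen are left out of it. A sterol regulatory element is in capitals in the promoter of SREBF2, the gene of the factor that binds it, at chr22:41832955-41833104 (plus strand). Of 15156 genes with a promoter in the table, 8 hold these exact letters. Of 22 promoters of the sterol list, that of SREBF2 is the only 1 that does.
SREBF2: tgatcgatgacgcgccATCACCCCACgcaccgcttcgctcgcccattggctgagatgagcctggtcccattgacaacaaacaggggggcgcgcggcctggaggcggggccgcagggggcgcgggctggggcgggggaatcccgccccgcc

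Of 23 sterol synthesis and uptake genes 9 rose and none fell. HMGCS1, which makes HMG-CoA, read 4.82, 4.71 and 4.43 in controls and 7.22, 7.11 and 6.88 at the low dose (2.42 ± 0.19, 5.34-fold, adjusted p = 0.000175). NPC1, which exports cholesterol from lysosomes, read 6.84, 6.82 and 6.02 against 8.39, 8.45 and 8.02 (1.73 ± 0.23, adjusted p = 0.00338). In both genes every low array lay above every control. The isomerase IDI1 (1.18 ± 0.15), squalene epoxidase SQLE (1.12 ± 0.17), the sterol carrier STARD4 (1.04 ± 0.16) and SREBF2 itself (0.86 ± 0.20) rose too, and DHCR7 of the last step lay just outside the threshold (1.00 ± 0.24, adjusted p = 0.0506). The list's mean level was 4.97, 4.98 and 4.81 on the controls and 5.84, 5.80 and 5.44 on the low arrays, and without control 3 and low 3 its median was 0.82 with 11 rises. None of 9 LXR and cholesterol efflux genes was called (median -0.02). In fatty acid synthesis and desaturation 4 of 20 rose, ACSS2 (1.20 ± 0.22), the elongase ELOVL7 (1.00 ± 0.20), the phosphatase LPIN1 (0.79 ± 0.17) and ACSL1 (0.72 ± 0.16), and 2 of the 20 rose without low 3. Outside these lists PLIN2, the droplet coat protein and the 1 call among 16 genes of fatty acid oxidation and PPAR, rose by 1.35 ± 0.16, and LDAF1, which works with seipin in droplet assembly, rose from 4.01, 3.87 and 2.99 to 5.66, 5.59 and 5.43 (1.93 ± 0.24, adjusted p = 0.00255).

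**Figure D3:**
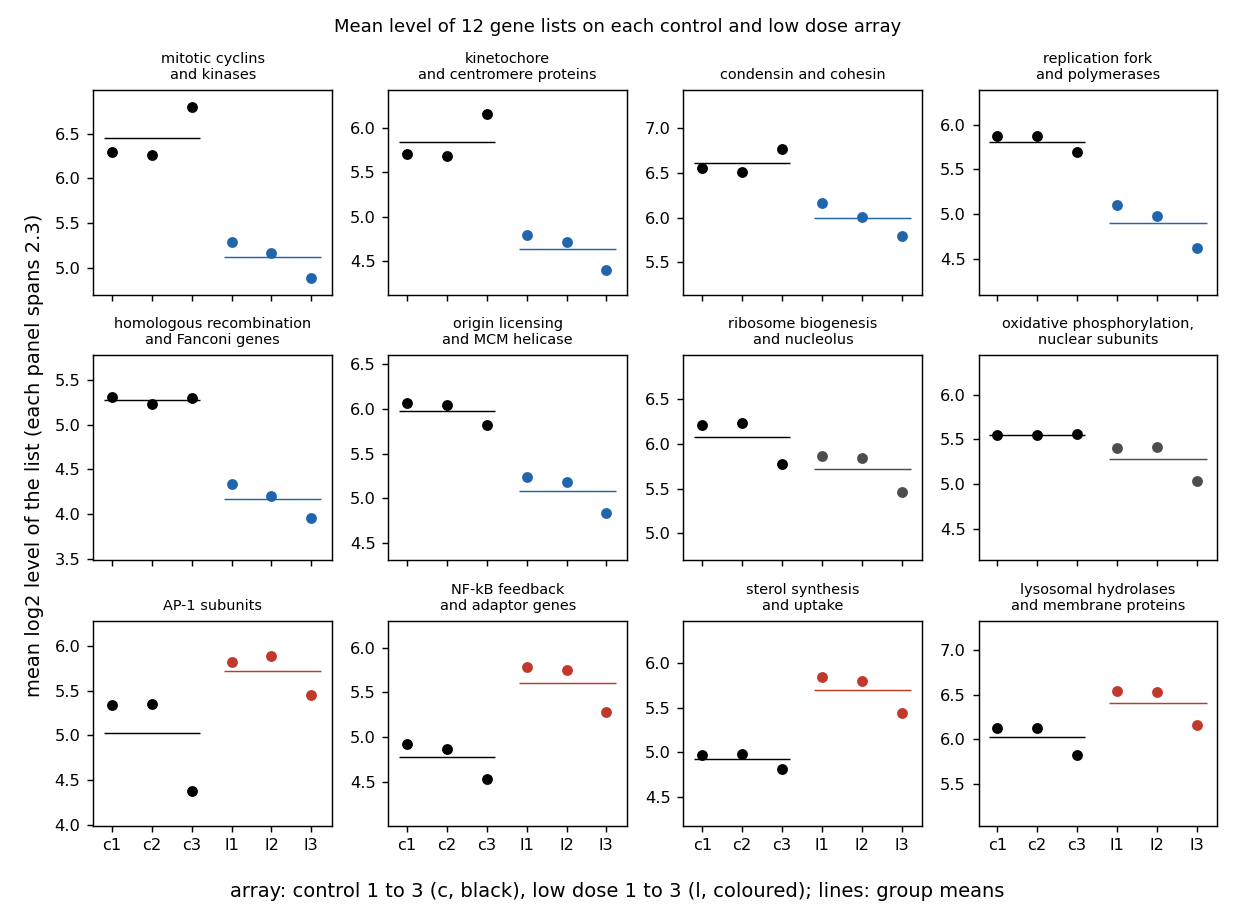
Mean log2 level of 12 gene lists (vertical axis, every panel spanning 2.3 units) on the 3 control (black) and 3 low dose (coloured) arrays, with group means as lines. Control 3 lies above the other controls in mitotic lists (6.80 against 6.30 and 6.26 for cyclins and kinases) and below them in AP-1 (4.38 against 5.34 and 5.35).

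Stress responses rose selectively. Of 17 ATF4 and CHOP genes 5 rose, among them ERN1 (1.34 ± 0.21), which encodes the unfolded protein sensor IRE1, CEBPB (1.36 ± 0.22) and DDIT3 (1.31 ± 0.16), whereas ASNS (-0.22) and CHAC1 (0.03), textbook targets of ATF4, were not called. In amino acid synthesis and transport the cystine carrier SLC7A11 rose (0.80 ± 0.18), 1 of 21 (4.76%, near the 3.00% over all genes). That call was lost without control 3 and without low 3. None of 19 cytosolic aminoacyl-tRNA synthetases was called (median -0.22). No gene was called among 19 ER chaperone and ERAD genes (median -0.04) or 11 cytosolic heat shock genes. Of 23 NRF2 antioxidant genes 4 rose, beside HMOX1 the aldo-keto reductase AKR1C1 (1.01 ± 0.19), the glutathione synthesis gene GCLC (0.89 ± 0.18) and SLC7A11, with a median of 0.43 that was 0.22 without control 3, and without low 3 only 2 rose. In the aryl hydrocarbon receptor list CYP1B1 (1.33 ± 0.26) and TIPARP (1.08 ± 0.19) rose, of 12. No metallothionein or zinc transporter of 14 was called, MT1E having the largest value (1.08), and 2 passed with the replicate block. None of 22 BCL2 family and death receptor genes was called either. In the hypoxia list 2 of 16 rose, BHLHE40 (1.37 ± 0.20) and NDRG1 (1.15 ± 0.17), and 4 with the replicate block. STC1, a secreted glycoprotein known to rise in hypoxia and stress, read 7.18, 7.27 and 6.85 against 9.23, 9.40 and 9.10 (2.14 ± 0.16, adjusted p = 0.000175).

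Autophagy and lysosomal genes rose in a minority. Of 26 autophagy genes 6 rose: GABARAPL1 (1.40 ± 0.18), SQSTM1 (1.37 ± 0.23), the initiating kinase ULK1 (1.02 ± 0.22), ATG14 (0.91 ± 0.18), the receptor OPTN (0.83 ± 0.16) and MAP1LC3B (0.60 ± 0.14). MITF, a transcription factor of the same pathway that was dim here, fell by 0.69 ± 0.15. Of 23 lysosomal genes 3 rose, NEU1 (1.32 ± 0.22), CTSL (1.19 ± 0.20) and the proton pump subunit ATP6V1B2 (0.81 ± 0.18), and the list's median of 0.38 was 0.17 without control 3. With the replicate block 5 lysosomal genes rose.

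In a group of 26 measured genes of lysosomal nutrient sensing, chosen after the values were seen, 8 rose and none fell (median 0.29). RRAGC, a Rag GTPase that recruits mTORC1 to lysosomes, read 5.34, 5.73 and 5.66 in controls and 7.52, 7.20 and 7.07 at the low dose (1.69 ± 0.18, adjusted p = 0.00128). FLCN, the folliculin GTPase activator of its complex, read 4.11, 4.12 and 3.66 against 5.61, 5.55 and 5.15 (1.47 ± 0.22, adjusted p = 0.00537), and its partner FNIP1 read 6.50, 6.36 and 6.60 against 7.94, 7.89 and 7.66 (1.35 ± 0.17, adjusted p = 0.00255). In all 3 the groups did not overlap. PLEKHM1, an adaptor of lysosome fusion (1.75 ± 0.21), ZFYVE1 (1.32 ± 0.21), the proton pump subunit ATP6V0D2 (1.30 ± 0.19) and the lysosomal channel MCOLN3 (1.09 ± 0.17) rose with them. These genes passed under every setting counted above.

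A set of genes known to be induced when growth factors are withdrawn was also put together after the values were seen. Of 25 measured 10 rose and none fell, with a median of 0.59. FBXO32, the ubiquitin ligase subunit atrogin-1 and a FOXO target, read 4.95, 5.36 and 3.89 in controls and 6.85, 6.80 and 6.35 at the low dose (1.93 ± 0.32, adjusted p = 0.00827). YPEL2 was dim in controls at 2.29, 2.85 and 2.83 and read 4.66, 4.75 and 4.59 at the low dose (2.01 ± 0.19, adjusted p = 0.000839). KLHL24 (1.83 ± 0.19), CREBRF (1.89 ± 0.25), the MYC antagonist MXD1 (1.53 ± 0.18), the G1 repressor HBP1 (1.33 ± 0.21), the insulin receptor substrate IRS2 (1.16 ± 0.21) and PNRC1 (1.04 ± 0.18) were the other named rises. In KLHL24 and CREBRF control 3 was the highest control, unlike its place in the AP-1 genes.

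**Figure D4:**
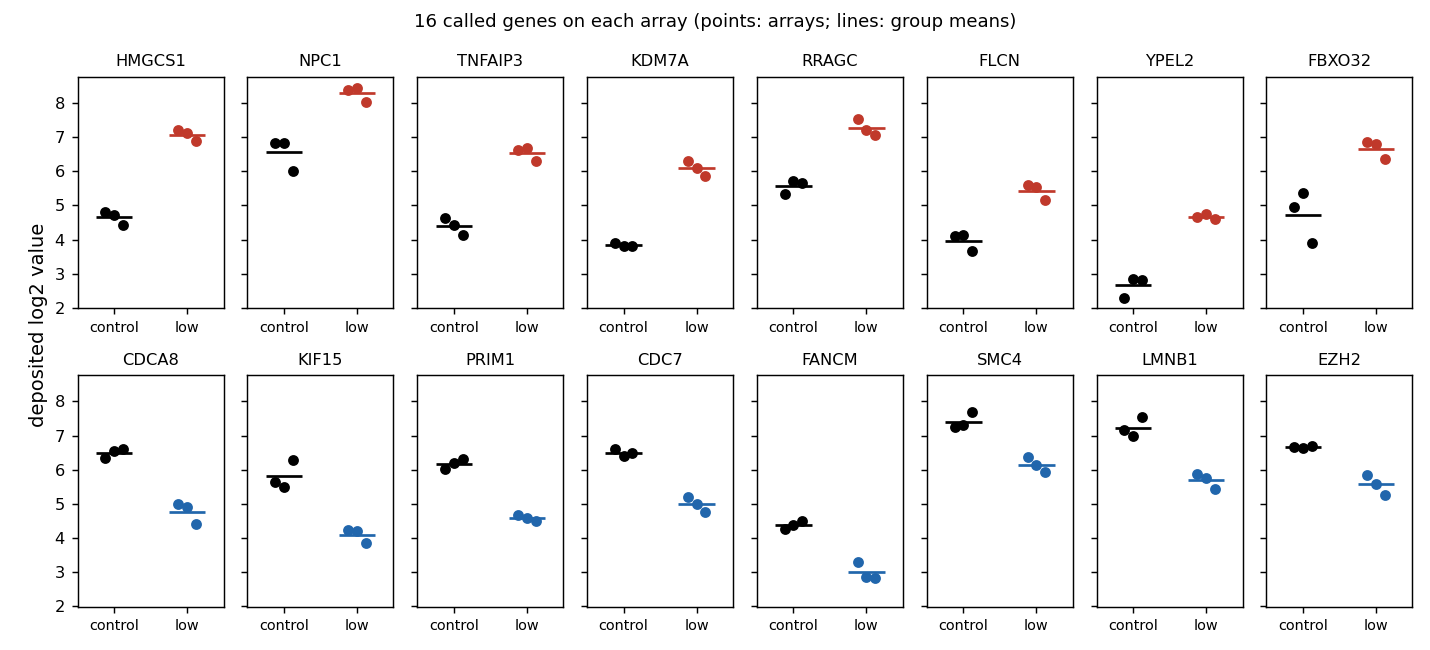
Deposited log2 value (vertical axis) of 16 called genes on each control (black) and low dose (coloured) array, with group means as lines. In each gene the 3 low arrays lie on one side of the 3 controls, from HMGCS1 (4.43 to 4.82 against 6.88 to 7.22) to EZH2 (6.63 to 6.68 against 5.27 to 5.85).

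Regulators of chromatin and transcription rose in 2 further groups chosen after the values were seen. Of 26 histone demethylases and jumonji proteins 5 rose and none fell. KDM7A, which removes methyl groups from histone H3, read 3.90, 3.80 and 3.81 against 6.30, 6.10 and 5.87 (2.25 ± 0.17, 4.77-fold, adjusted p = 0.000175). KDM6B, an eraser of the Polycomb mark, read 4.58, 4.64 and 3.67 against 6.10, 6.17 and 5.56 (1.64 ± 0.28), and JARID2, a Polycomb cofactor, rose by 1.55 ± 0.27. The controls of KDM7A lay close together, while control 3 was low in KDM6B. JMJD1C (0.87 ± 0.18) and KDM5B (0.82 ± 0.18) rose less. Of 15 AT-rich and BTB zinc finger regulators 10 rose (median 0.85), including HIVEP1 (1.46 ± 0.34), ZBTB43 (1.30 ± 0.20), ZBTB10 (1.27 ± 0.25), the silencing factor RESF1 (1.26 ± 0.19) and SOX4 (0.97 ± 0.18). Members of these groups were picked with their change in view, so the share that rose carries no weight.

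Several large rises and falls belonged to none of the lists. The hexokinase-like gene HKDC1 rose from 3.50, 3.99 and 2.34 to 5.82, 5.83 and 5.26 (2.36 ± 0.35), the SMC5/6-associated gene EID3 from 5.44, 5.21 and 3.45 to 7.16, 7.11 and 6.89 (2.35 ± 0.44), and the zinc finger gene ZNF114 by 1.91 ± 0.24. Control 3 was the lowest array in each of these 3. Among the falls, CAVIN2, a coat protein of caveolae, read 4.45, 4.43 and 5.48 against 3.29, 3.29 and 2.92 (-1.62 ± 0.27), and GPX8, a peroxidase of the ER, read 5.64, 5.42 and 5.70 against 4.77, 4.04 and 3.07 (-1.63 ± 0.33), with a wide spread among the low arrays. The protease gene FAM111B fell by 1.66 ± 0.18.

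Growth machinery moved little, and mostly downwards. Over 10 lists of translation, splicing, proteasome and mitochondrial genes, 270 of 303 genes lay below 0, with a median of -0.26 against -0.04 for all genes, and 6 fell: the mitochondrial ribosomal genes MRPL1 (-0.73 ± 0.16) and MRPL35 (-0.65 ± 0.15), RPS25 (-0.76 ± 0.18), the initiation factor subunit EIF2B3 (-0.76 ± 0.18), and the splicing genes SRSF7 (-0.80 ± 0.15) and LSM6 (-0.72 ± 0.15). Without low 3 none of the 303 was called, and without control 3 only 1 spliceosome gene was. None of 39 nuclear subunits of oxidative phosphorylation was called (median -0.27, and -0.16 without low 3), nor was any of 29 proteasome genes (-0.27), 32 ribosome biogenesis genes (-0.38) or 16 genes of the tricarboxylic acid cycle (-0.28). Ribosome biogenesis genes had a mean level of 6.21, 6.23 and 5.78 on the controls and 5.86, 5.84 and 5.46 on the low arrays, so control 3 lay below low 1 and low 2. Among genes chosen after the values were seen, 3 of 10 RNA polymerase III subunits fell, POLR3B (-0.96 ± 0.17), POLR3G (-0.85 ± 0.20) and POLR3F (-0.79 ± 0.19), and 4 of 12 genes of the RNA exosome fell, EXOSC9 (-0.90 ± 0.18), EXOSC8 (-0.88 ± 0.16), EXOSC2 (-0.86 ± 0.16) and DIS3L (-0.78 ± 0.15). Only 1 of the polymerase genes fell without control 3, and only 1 without low 3. In glycolysis the glucose transporter SLC2A3 rose (1.69 ± 0.17) and lactate dehydrogenase B (LDHB) fell by 0.69 ± 0.16, of 22, and the latter call was lost without control 3 and without low 3.

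Genes of shape and adhesion were mixed. Of 20 YAP and TEAD targets 2 fell and none rose (median -0.28): CCN2, known as connective tissue growth factor, read 7.69, 7.73 and 6.57 against 6.10, 6.10 and 5.78 (-1.34 ± 0.28, adjusted p = 0.0276), and AJUBA fell by 0.95 ± 0.19. Without control 3, the lowest control in CCN2, 4 of these genes fell, and without low 3 none did. With the replicate block 4 fell. The integrin chains ITGB3 (1.37 ± 0.20) and ITGA2 rose, of 17 integrin and laminin genes. The collagenase MMP1 (1.24 ± 0.15) and COL1A1 (0.76 ± 0.16) rose and COL13A1 fell by 0.81 ± 0.16, of 26 matrix genes. None of 15 epithelial-mesenchymal factors was called, SNAI1 having the largest value (0.77). Of 28 tubulin and actin genes TUBB2A rose (1.12 ± 0.26), and of 33 interferon-stimulated genes IRF9 rose (1.10 ± 0.21). These shares, 3.57% and 3.03%, are near the 3.00% over all genes, and the call of TUBB2A was lost without control 3.

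Families found by name alone showed where calls were rare. None of 378 olfactory receptor genes was called, in a family whose median change was -0.04. Their median log2 level was 1.26, within the dimmest bin of genes, which held 0.151% of all calls. The median level was 3.38 for ZNF, 2.68 for SLC and 3.37 for TMEM genes, against 2.75 over all genes. Of 506 ZNF genes 5 rose and 10 fell (2.96%), near the 3.00% over all genes. On chromosome 19, where 238 of them lie, 7 fell and 3 rose. With the replicate block 7 ZNF genes rose and 19 fell, and without low 3 the counts were 4 and 4. Of 390 SLC solute carriers 5 rose and 1 fell (1.54%), and of 233 TMEM genes 2 fell (0.858%). With the block 10 SLC genes rose and 4 fell. Without control 3 only 3 SLC genes rose, and without low 3 no TMEM gene fell.

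Non-coding RNAs were called seldom, and they were dim. Of 1846 genes annotated as long non-coding 4 rose and 9 fell (0.704%), at a median log2 level of 1.85 against 3.36 for protein-coding genes, of which 3.75% were called. LINC-PINT, a p53-regulated RNA, read 5.99, 6.03 and 5.36 in controls and 7.12, 7.20 and 6.89 at the low dose (1.27 ± 0.22, adjusted p = 0.0111). NPPA-AS1 (1.38 ± 0.20), TLR8-AS1 (1.24 ± 0.21), IL6-AS1 (1.22 ± 0.24) and the stress-induced LUCAT1 (1.15 ± 0.23) rose as well. The falls were led by PCNA-AS1 (-1.33 ± 0.21), LINC02984 (-1.29 ± 0.23), TMPO-AS1 (-1.16 ± 0.14), NR2F1-AS1 (-0.97 ± 0.23) and the snoRNA host SNHG1 (-0.95 ± 0.19). PCNA-AS1 and its sense partner PCNA (-1.0 ± 0.14) fell together, as did TMPO-AS1 and TMPO, and IL6-AS1 rose with IL6. The sources used here do not say which strand each probe reads, so an antisense gene and its partner may not be separate measurements.

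Of 1018 genes annotated as microRNA 1 rose and 3 fell (0.393%), all dim. For each, 1 mature sequence is given, with bases 2 to 8, the seed, in capitals. MIR16-2 has a further mature product, hsa-miR-16-2-3p, which is not printed. The rows read the microRNA genes, which also give rise to longer precursors. The sequences come from RefSeq on GRCh38.p14, and no 2 of those shown share a seed.
hsa-miR-16-5p: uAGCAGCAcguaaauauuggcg
hsa-miR-548t-5p: cAAAAGUGaucgugguuuuug
hsa-miR-924: aGAGUCUUgugaugucuugc
hsa-miR-891a-5p: uGCAACGAaccugagccacuga

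MIR16-2 read 1.99, 2.10 and 2.42 in controls and 1.17, 1.22 and 1.5 at the low dose (-0.87 ± 0.17, adjusted p = 0.0208). It lies within SMC4, whose own row fell by 1.27. MIR924 (-1.64 ± 0.28) lies next to its host gene row MIR924HG, which fell by 0.78, and MIR891A fell by 1.34 ± 0.28. MIR548T read 1.38, 0.98 and 1.85 against 2.39, 2.27 and 2.29 (0.91 ± 0.21, adjusted p = 0.0418), but its dimmest row gave -0.18.

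None of 213 small nucleolar RNAs was called. The H/ACA class (61 SNORA genes) had a median of -0.22, which was 0.19 without control 3, with 5 rises, so its direction rests on that array. SNORA38B read 4.51, 4.88 and 9.78 in controls and 5.11, 4.57 and 4.14 at the low dose. With -1.79 it had the largest fall that was not called, and control 3 alone was high. The vault RNA gene VTRNA1-1 had the same shape, at 3.01, 2.40 and 6.85 against 3.32, 3.23 and 2.70. The 5S-type gene RN5S390 was high on low 3 alone, at 7.74 against 2.17 to 3.15 elsewhere on the 6 arrays.

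In the largest rises that were not called control 3 often lay below the other controls. The lipase gene LIPG read 5.31, 5.41 and 3.34 in controls and 6.40, 6.47 and 5.92 at the low dose (1.58 ± 0.45, adjusted p = 0.100), MIR27A read 4.63, 5.08 and 3.23 against 5.99, 5.94 and 5.45 (1.48 ± 0.40), and AMPD3 read 4.21, 4.39 and 2.55 against 5.21, 5.33 and 4.88 (1.42 ± 0.39). In these 3 the groups did not overlap. RNY4P23 (-1.73 ± 0.42, adjusted p = 0.0537), PRAMEF22 (-1.33 ± 0.32) and MIR1205 (-1.26 ± 0.37) were the corresponding falls.

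Called genes that are neighbours on a chromosome were counted through the order of RefSeq genes on GRCh38.p14. Of 20891 placed genes, 39 adjacent pairs were both called: 21 pairs fell together, 6 rose together and 12 moved in opposite directions. How many such pairs would arise from the share of tested genes called, 3.00%, was not worked out, so the counts are descriptions only. They include antisense genes with their partners, such as PCNA-AS1 with PCNA, which may not be separate measurements. Pairs that fell together included CCNB1 (-1.57) with CENPH (-0.77), OIP5 (-1.29) with NUSAP1 (-1.55), NUP37 (-1.37) with PARPBP (-1.58), and FAM111B with FAM111A (-1.24). The widest opposite pair was IL1A, which rose by 2.46, beside the spindle gene CKAP2L, which fell by 1.21. CKAP2L read 6.43, 6.36 and 7.01 against 5.46, 5.51 and 5.22, while IL1A read 1.83, 1.91 and 1.86 against 4.87, 4.69 and 3.41. Another was OPTN (0.83) beside MCM10 (-1.40). The span of genes in the genome differed little from bright genes that were not called: the median was 30.8 kb for risen, 33.9 kb for fallen and 32.6 kb for uncalled genes with a mean level of at least 4.

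Promoter windows of 300 bases, 250 before to 50 after the first listed start, were available for 215 risen genes (81.4%), 329 fallen genes (82.2%) and 15156 of all tested genes (68.6%). Each motif was searched on both strands, and shares are descriptions with no test. The CHR, TTTGAA, was present in 29.5% of fallen, 8.37% of risen and 12.4% of all promoters. It was found in 20 of 29 promoters of the passenger and kinesin list and 13 of 29 of the kinetochore list, but in 1 of 20 of the licensing list and 0 of 23 of the fork list. The E2F-type element TTCCCGC lay in 18.8% of fallen, 6.05% of risen and 8.54% of all promoters, in 9 of 23 fork, 7 of 20 licensing and 9 of 16 recombination promoters, in 6 of 29 kinetochore and 4 of 19 condensin and cohesin promoters, and in 1 of 29 of the passenger and kinesin list. A further E2F-type element, TTGGCGC, was in 11.9% of fallen, 4.65% of risen and 4.02% of all. CCAAT was in 53.5% of fallen, 40.5% of risen and 36.0% of all promoters, and in 16 of 22 sterol promoters. The CHR variant TTTAAA (10.3% of fallen, 9.39% of all) and the AT-rich control TTTTAAA, which contains it (4.26% and 5.84%), did not show such a difference from all promoters. Called genes were mostly bright. In uncalled genes with a mean level of at least 4, the CHR was in 9.03%, TTCCCGC in 11.1%, TTGGCGC in 5.07% and CCAAT in 36.7%. In the same genes the CHR variant was in 6.42%, below its share in fallen genes, and the AT-rich control was in 3.82%.

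In risen genes the AP-1 site TGACTCA was present in 7.91% of promoters against 0.608% of fallen and 3.86% of all. The E-box CACGTG was in 14.4%, 6.99% and 8.64%, the TATA box TATAAA in 14%, 7.29% and 9.34%, and 1 of 3 κB sites in 1.86%, 0.0% and 0.475%. The cyclic AMP element TGACGTCA was more frequent both in risen (6.05%) and in fallen promoters (5.78%) than in all (2.57%). The antioxidant-type element TGANTCAGC, which contains TGACTCA where N is C, was in 1.86%, 0.0% and 1.19%. In uncalled genes with a mean level of at least 4, the AP-1 site was in 2.59%, the E-box in 11.1% and the TATA box in 4.98%. In the same genes the κB sites were in 0.422%, the cyclic AMP element in 3.5% and the antioxidant-type element in 0.898%. The median GC content of the windows was 68.3% for risen, 62.7% for fallen and 62.7% for all genes, and its part in these shares was not tested. In the 150 bases before the start the CHR share of fallen genes was 14%, against 5.53% of all.

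**Figure D5:**
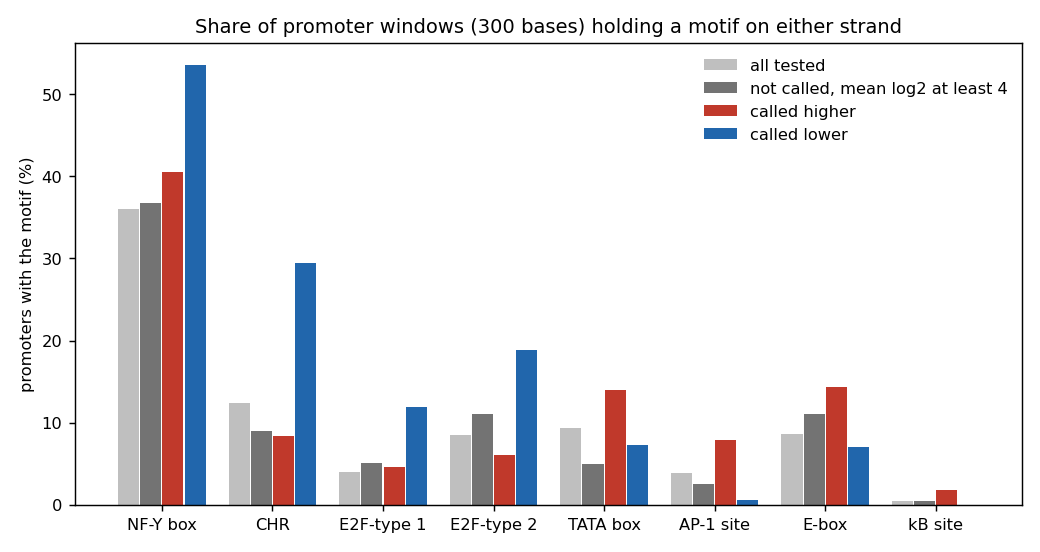
Percent of 300-base promoter windows (vertical axis) that hold each of 8 motifs on either strand, for all tested genes, uncalled genes with a mean log2 level of at least 4, and genes called higher or lower. The CHR bar of fallen genes stands at 29.5% and that of uncalled bright genes at 9.03%, and the AP-1 bar of risen genes stands at 7.91% against 2.59%.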

How the data were processed

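Total RNA of 8 MDA-MB-231 samples was hybridised to GeneChip Human Gene 2.1 ST arrays, 1 per sample, per the labels. The deposited table holds log2 values that the authors made from the scans. The Transcriptome Analysis Console is named, per the submitters' processing notes, and its version and the normalization it applied were not given in the sources used here. Values run up to 12.1, from which the log base was read. With no background measure in the table, dim and absent genes cannot be told apart, and precision is limited by the number of arrays.

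Rows were named through the platform annotation. Of 53617 rows 23558 had 1 symbol, 2155 several and 27904 none here. Of the first, 22271 matched a RefSeq gene by Entrez ID and 3 symbols were updated. For 618 symbols with several rows the brightest was kept. A model with 1 mean per group over all 8 arrays was fitted with limma 3.58.1 in R 4.3.3 (5 residual and 6 prior degrees of freedom), and p-values were adjusted by Benjamini-Hochberg over 22109 genes. The script was tested on simulated data.

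Genes were grouped in 70 lists (1622 entries, 1449 measured) and described by counts and medians. The members and lists were chosen with earlier results of these data known, and 7 more groups after the values were seen. Named genes are ranks 1 to 30 per direction by size (small RNAs, pseudogenes, antisense and uncharacterized genes left out), up to 5 called members of each list and any that moved against it, the 5 brightest and the smallest called, 5 long non-coding RNAs per direction, and the 5 largest uncalled per direction. Others named were chosen after their values were seen. Deviations from group means of same-numbered control and low arrays correlated at 0.103, 0.153 and 0.203. A fit with the replicate number as a block was therefore given as an alternative. The main fit did not pair the samples, and the labels state no pairing. Control 1 and low 2, of different numbers, correlated at 0.122. Alternatives were other centrings, arrays left out, array weights, a trend, robust fits, dim genes left out, other rows of a symbol and the block. Promoters and microRNAs came from RefSeq tables on GRCh38.p14, and only their own coordinates are printed, since the build behind the arrays' annotation is not given in the sources used here. Protein lengths were not analysed here. The result of 1 of the lists is not reported here.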

Additional observations from a re-analysis of the deposited data

Results flagged for a closer look

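Rows outside the gene test also carried differences between the low dose and control arrays. In a single fit of all 53617 deposited rows, 15 of the 2155 rows with several symbols were called higher and 7 lower (1.02%), and 50 of the 27904 unnamed rows were called higher and 25 lower (0.269%). In the same fit 131 rows with 1 symbol were higher and 174 lower (1.29%). These rows were noted because no comparison of the report uses them. Rows with several symbols and unnamed rows had more rises than falls, the reverse of rows with 1 symbol, and this difference was not tested.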

How the results depend on the processing

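The 264 higher and 400 lower genes became 23 and 7 with a 1.5-fold minimum, 961 and 1094 with array weights, 459 higher with 75th percentiles subtracted, 612 higher with quantile normalization, 483 higher with the replicate block over 8 arrays, 398 higher without control 3 and low 3 together, and 117 and 167 when all deposited rows were tested in 1 fit (chosen after seeing the data). When 1 array was left out, there were 96 to 252 higher and 170 to 408 lower genes. Leaving out a control gave 173 and 213 (control 1), 175 and 257 (control 2) or 250 and 408 (control 3), and leaving out a low array gave 117 and 244 (low 1), 96 and 170 (low 2) or 252 and 188 (low 3). Genes with separate arrays, 1555 higher, became 2565 with 75th percentiles subtracted and 2587 with quantile normalization. Lists with a median above 0.5, 4 of 70, became 10 with 75th percentiles subtracted, 9 with dim genes left out, 7 with quantile normalization and 2 to 10 when 1 array was left out. The brighter 2 of 5 level bins held 89% of calls, and 96.7% with the 1.5-fold minimum, 79% with array weights, 100% with dim genes left out, 85.6% with the replicate block, 85.7% without control 3 and low 3, and 86.9% to 91.4% when 1 array was left out. KIF genes called lower, 12, became 0 with the 1.5-fold minimum. In the 150 bases before the start, promoter shares were 14% for the CHR, 45.6% for CCAAT and 12.2% for TTCCCGC in fallen genes and 3.72% for the AP-1 site in risen genes, and with any listed start CCAAT was at 60.2%. With the dimmest row of a symbol, FAM72C had 0.03 in place of -1.10 and MIR548T -0.18 in place of 0.91. The causes were not tested, beyond the smaller windows and numbers of arrays themselves. Of 1328 list medians under other settings, 40 moved by more than the spread between replicates. Of 664 called genes, 365 had a call that ended under none of the settings or under at most 3.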
